A study of Mus musculus with 35 samples.

Results

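Genes of membrane trafficking were followed in hyperplastic sympathetic ganglia and tumors of mice that carry the TH-MYCN transgene. The members were taken by name: every probe of the normalized ganglion table whose single gene symbol starts with Rab and a digit, or with Vps, Snx, Stx or Vamp, with Rab3a left out. This gave 75 probes for 70 genes, out of 12688 probes, of which 8354 carried a single symbol. There were 33 Rab probes, 18 Snx, 12 Vps, 8 Stx and 4 Vamp probes. Rab11b, Rab6ip2, Snx6, Vamp4 and Vps4b had 2 probes each. For 8 genes the deposited symbol has since changed: Vps24 is now Chmp3, Rab7l1 is Rab29, Rab2 is Rab2a, Rab6 is Rab6a, Rab6ip1 is Dennd5a, Rab6ip2 is Erc1, Vps26 is Vps26a and Snx26 is Arhgap33. Rab1 matched no single current symbol in RefSeq, so it was left as deposited and has no promoter below. The deposited symbols are used here. Because the rule goes by name, it also took binding partners such as Rab6ip2, which is not a Rab protein.

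All animals were homozygous for TH-MYCN, a transgene in which the tyrosine hydroxylase promoter drives human MYCN in the sympathoadrenal lineage, so no group lacks the transgene. Set 1 held 24 tumors, 6 in each size class: small (0.05 to 0.1 g), medium (0.24 to 0.46 g), large (0.76 to 1.3 g) and very large (1.6 to 3 g). The life span given for these mice was 28 to 42 days with small tumors, 35 to 42 with medium, 35 to 46 with large and 35 to 45 with very large ones. Set 2 held 2 small tumors taken after weaning at day 28 and ganglia with foci of neuroblast hyperplasia from day 0 (n = 5), day 7 (n = 2) and day 14 (n = 2) of life. Both tumors of set 2 (life span 42 and 28 days) are also in set 1 as small replicates 6 and 3, hybridised to other arrays. The RNA came from 10 µm frozen sections of whole tissue and was read on single-colour oligonucleotide arrays. Values are log2 of the normalized intensity. In such bulk samples, fewer cells of a type and less RNA per cell cannot be told apart.

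Rab proteins are small GTPases that switch between a GDP-bound and a GTP-bound state and mark the membrane of a given compartment, where they recruit tethers and motors. SNARE proteins, among them the syntaxins (Stx) on target membranes and the vesicle-associated membrane proteins (Vamp), zip together to fuse a vesicle with its target, and SM proteins such as Vps45 assist them. Sorting nexins (Snx) and the retromer (Vps26, Vps29, Vps35) return cargo from endosomes, while the ESCRT machinery and the HOPS tether lead cargo toward the lysosome. Sympathetic neuroblasts use these routes to build dense-core vesicles, to release catecholamines and to carry neurotrophin receptors along growing axons.

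Promoters of the members were read from RefSeq (GRCm38.p6), which held 69 promoters for 56 of the 70 genes. Those of 4 members are shown because these members moved in opposite directions between tumors and ganglia: Stx1a and Rab3b were lower in tumors, Snx5 and Rab12 higher. Each is the 250 bases before the annotated start, 5' to 3' on the gene's strand, and capitals mark CACGTG (the canonical E-box, the letters that MYC family proteins are known to bind) and GGGCGG (a GC box) on either strand. Stx1a lies at chr5:135023232-135023481 (+), Rab3b at chr4:108878820-108879069 (+), Snx5 at chr2:144270573-144270822 (-) and Rab12 at chr17:66519671-66519920 (-).
Stx1a: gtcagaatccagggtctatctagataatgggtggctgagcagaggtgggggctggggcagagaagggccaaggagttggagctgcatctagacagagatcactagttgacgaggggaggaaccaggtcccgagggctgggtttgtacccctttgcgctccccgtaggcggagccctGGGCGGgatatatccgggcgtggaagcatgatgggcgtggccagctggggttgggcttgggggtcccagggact
Rab3b: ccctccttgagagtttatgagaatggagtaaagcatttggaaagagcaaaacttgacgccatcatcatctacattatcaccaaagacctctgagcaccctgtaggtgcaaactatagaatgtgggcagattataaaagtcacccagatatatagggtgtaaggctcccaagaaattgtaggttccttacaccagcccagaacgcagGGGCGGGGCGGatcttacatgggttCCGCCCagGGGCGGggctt
Snx5: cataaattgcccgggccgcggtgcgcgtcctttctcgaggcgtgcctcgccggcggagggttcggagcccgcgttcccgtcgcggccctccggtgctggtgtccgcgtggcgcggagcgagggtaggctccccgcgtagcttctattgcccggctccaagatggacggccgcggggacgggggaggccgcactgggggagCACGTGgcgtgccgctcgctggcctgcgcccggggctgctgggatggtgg
Rab12: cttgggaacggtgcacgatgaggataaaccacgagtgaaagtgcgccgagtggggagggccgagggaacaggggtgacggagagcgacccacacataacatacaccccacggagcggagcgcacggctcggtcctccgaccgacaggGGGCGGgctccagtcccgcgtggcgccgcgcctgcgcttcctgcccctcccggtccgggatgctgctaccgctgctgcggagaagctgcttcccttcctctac

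CACGTG stood in 8 of the 69 member promoters (11.6%) against 6.02% of all 32851 promoters in the table. The genes with it were Rab21, Rab5a, Snx5, Snx8, Vamp4, Vps16 and Vps26. It stood in 0 of 26 promoters of members lower in set 2 tumors than in day 0 ganglia, and in 2 of 5 of those higher (Rab21 and Snx5). The 26 promoters belong to 20 of the 27 lower members, so some genes enter with several starts. This split was not tested. GGGCGG stood in 66.7% of member promoters against 32.7% of all, CCAAT in 40.6% against 33.8%, and TATAAA in 4.35% against 12.4%. GGGCGG was found in the promoters of Stx1a, Rab3b and Rab12 shown above, and CACGTG in that of Snx5. These are letter matches in a fixed window, and binding was not measured.

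Some facts about the arrays touch every tumor result. The 2 tumors hybridised in both sets ranked their probes with a Spearman correlation of 0.849 and 0.848 between sets, across 12688 probes that are not independent replicates. The members' percentile within an array shifted between sets by a median of 7.24 and 9.00 points in the 2 tumors, and by over 10 points for 33 and 34 of the 75 probes. Levels are therefore not compared across sets, and the percentiles of the set 1 arrays are given beside the tumor results. Among the day 0 ganglia, replicates 1 and 2 carry specimen numbers of another series than replicates 3 to 5, and 34 of 75 members (45.3%) did not overlap between these specimen series, against 40.3% of all probes.

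RNA levels of cell type markers also differed between tumors and ganglia. Defining genes of the sympathoadrenal lineage were all above the intensity floor. Of its 12 markers, 0 were higher and 7 lower in set 2 tumors than in day 0 ganglia, with Th lower at -2.34. Of 9 peripheral neuron markers 8 were lower, and their summed intensity was 5.08 to 5.29 in tumors against 8.58 to 14.1 in day 0 ganglia, in units of 1e6. Schwann cell and satellite glia markers were lower (4 of 7, sums 0.323 to 0.357 against 1.67 to 3.17), as were fibroblast markers (7 of 9, sums 3.48 to 3.51 against 6.20 to 7.85). Skeletal muscle markers were higher (7 of 8, with 1 lower, sums 3.65 to 3.83 against 0.888 to 1.54). So were markers of adipocytes (8 of 9, sums 4.70 to 5.13 against 0.323 to 0.751) and of macrophages (6 of 7, sums 1.77 in both tumors against 0.228 to 0.357). Endothelial markers were higher in 1 of 6 and adrenal cortex markers in 1 of 2. The part of these cell types in the members' differences between tumors and ganglia was not tested.

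The comparison of set 2 tumors with ganglia asks how trafficking genes stand in an established tumor relative to the hyperplastic tissue that precedes it. More members were lower than higher. Against day 0 ganglia 5 members were higher and 27 lower, 42.7% of the members, where 37.3% of all probes passed (18.4% higher and 18.9% lower; limma, Benjamini-Hochberg adjusted p under 0.05). Against day 7 ganglia 5 were higher and 21 lower, 34.7% of members and 32.2% of all probes (15.4% higher and 16.9% lower). Against day 14 ganglia 4 were higher and 25 lower, 38.7% of members and 39.7% of all probes (19.9% each way). The share of members called was thus near that of all probes, while the split between directions was uneven. The members' median log2 difference was -0.34 against day 0, -0.22 against day 7 and -0.40 against day 14, beside 0.01, 0.06 and 0.06 over all probes. The 3 comparisons share the same 2 tumors.

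**Figure D1:**
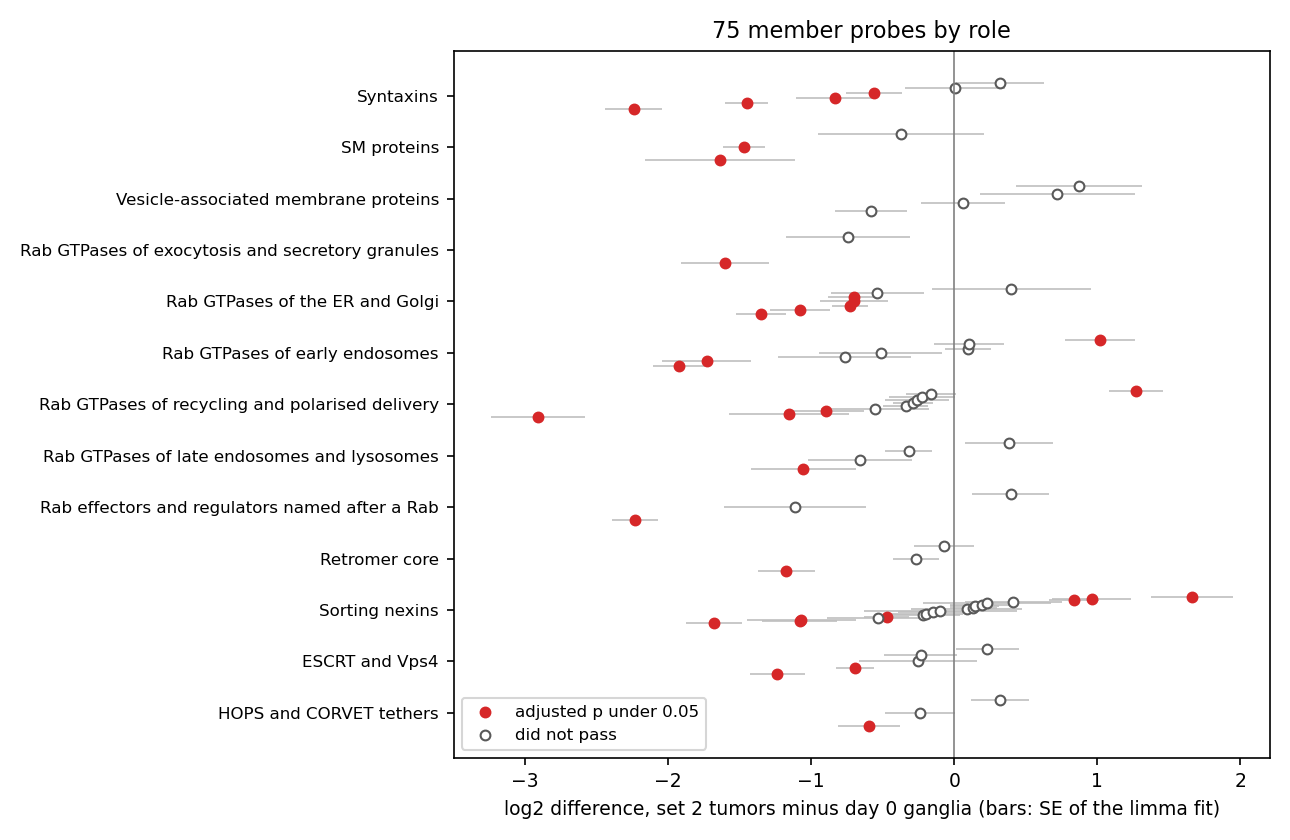
The log2 difference of each of the 75 member probes, set 2 tumors (n = 2) minus day 0 ganglia (n = 5), with the standard error of the limma fit, grouped by the role of the protein. Filled points had an adjusted p under 0.05. The values run between -2.91 (Rab15) and 1.66 (Snx5), with 27 filled points left of zero and 5 right of it.

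Members called in the same direction against all 3 ganglion ages numbered 22. The share of all probes called this way was not computed, and the 3 comparisons share their tumors, so the count does not set the members apart. Lower in tumors each time were 19 probes, among them Rab15, Rab2, Rab32, Rab33b, Rab3b, Rab4a, Rab4b, Rab6, a probe of Rab6ip2, Snx11, Snx15, Stx1a, Stx4a, Stx7, Vps24, Vps28, Vps29 and Vps41. The median log2 difference of the 19 was -1.35 against day 0, -1.36 against day 7 and -1.72 against day 14. Higher each time were Rab12, Snx4 and Snx5.

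**Figure D2:**
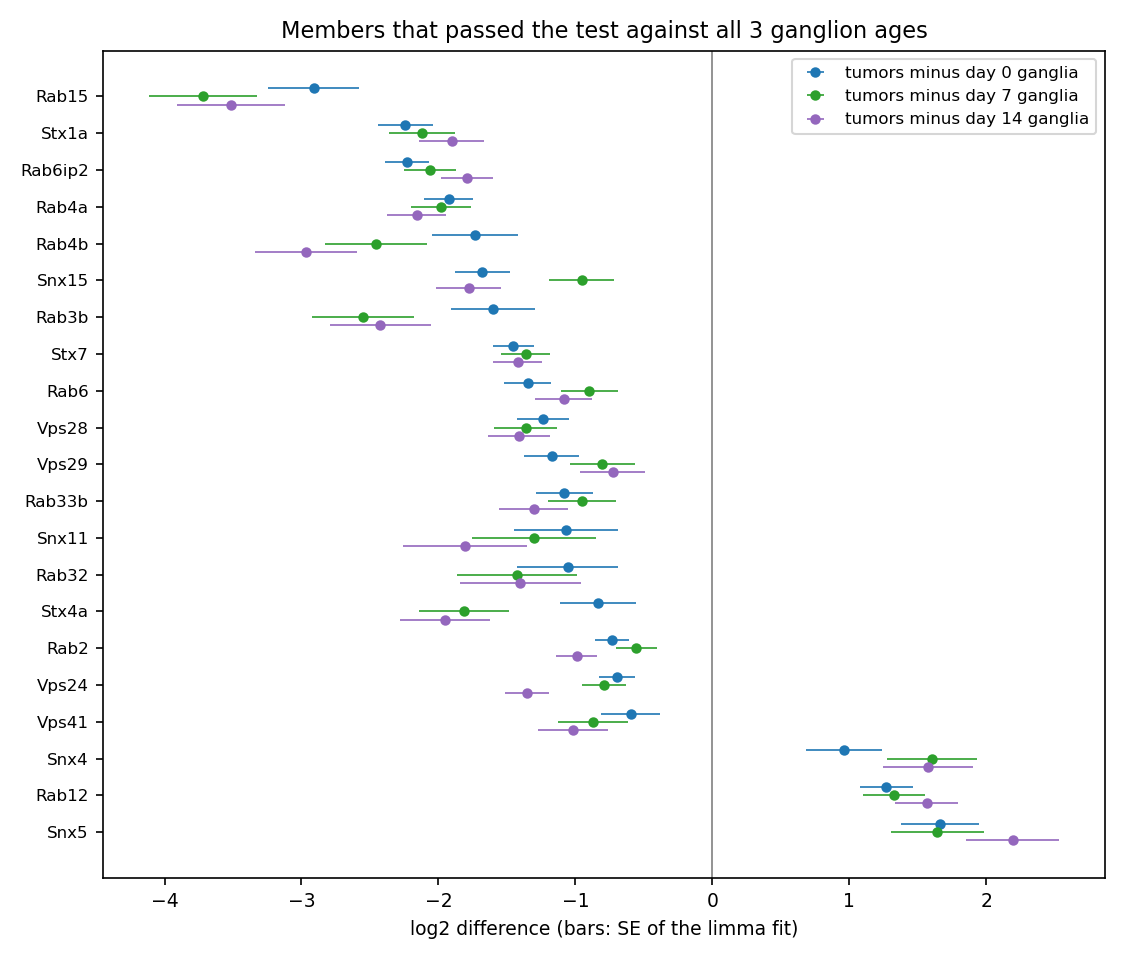
Of the 22 members, 21 are drawn that passed the test against day 0, day 7 and day 14 ganglia, with the log2 difference (tumors minus ganglia) and its standard error for each ganglion age. Rab15 has the lowest values (-2.91, -3.72 and -3.52) and Snx5 the highest (1.66, 1.64 and 2.19).

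The set 1 arrays of the same 2 tumors give a second reading of ranks, set against day 0 ganglia that have set 2 arrays alone. Shifts between the sets enter this reading, so it cannot decide whether a call holds. The set 2 arrays gave the calls themselves, so positions outside the day 0 range on them follow largely from the selection. In percentiles among the 12688 probes, 18 of the 19 lower members lay below all 5 day 0 ganglia on both set 2 arrays. On both set 1 arrays 14 of the 19 did so. The members that did not on the set 1 arrays were Rab3b, Rab4b, Snx11, Stx4a and Vps41, and Rab32 did not on the set 2 arrays. Of the 3 higher members, all lay above the day 0 ganglia on the set 2 arrays, and Snx5 was the only member of the 3 that did so on the set 1 arrays. Over the whole set of calls against day 0, 18 of the 27 lower members lay below the day 0 range on both set 1 arrays and 1 of the 5 higher ones above it. On the opposite side of that range on both set 1 arrays lay 3 of the lower members (Stx4a, Vps41 and Vps45) and 1 of the higher (Rab21). The same counts were not made over all called probes, so they cannot be read as particular to the members.

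Of the 6 syntaxin probes 4 were lower in tumors than on day 0 and 0 higher. Stx1a, the syntaxin of the neuronal plasma membrane that pairs with synaptic vesicles, was at 16.80 and 16.71 in tumors. In ganglia it was at 19.18, 18.83, 19.01, 18.56 and 19.39 on day 0, 18.76 and 18.99 on day 7 and 18.76 and 18.55 on day 14. Both tumors thus lay below all 9 ganglia. Stx1a was 4.73-fold lower in tumors than in day 0 ganglia (log2 difference -2.24, SE 0.20, limma adjusted p 3.5e-06). On the set 1 arrays of the same tumors it stood at the 73.5th and 71.9th percentile, below the day 0 range of 91.7 to 95.1.

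Stx7, a syntaxin of late endosomes, was at 17.35 and 17.31 in tumors and between 18.56 and 18.99 in the 5 day 0 ganglia (log2 difference -1.45, SE 0.15, limma adjusted p 1.14e-05). Stx4a, a plasma membrane syntaxin of non-neuronal exocytosis, was at 12.56 and 12.68 in tumors and between 13.05 and 14.03 on day 0 (log2 difference -0.84, limma adjusted p 0.0296). On set 1 arrays Stx4a stood at the 55.5th and 57.1st percentile, above its day 0 range of 33.7 to 47.7. Stx12, an endosomal syntaxin, was lower against day 0 alone (-0.56, limma adjusted p 0.0362).

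Vps45, the SM protein of endosomal fusion, was at the intensity floor of 9.78 on both tumor arrays and between 10.12 and 12.29 on day 0, so its difference of -1.64 (SE 0.53, limma adjusted p 0.0269) is a bound. The set 1 arrays of those tumors put Vps45 at the 41.2nd and 37.3rd percentile, above its day 0 range of 1.73 to 22.1. Of the 4 probes of vesicle-associated membrane proteins, 0 passed against day 0. Vamp2, the synaptic vesicle SNARE that pairs with Stx1a, was at 14.47 and 14.69 in tumors and 14.52, 13.85, 14.71, 14.41 and 15.11 on day 0, and the groups overlapped (log2 difference 0.06, SE 0.29, limma adjusted p 0.9).

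Among Rab GTPases of secretion and recycling, Rab15 had the lowest difference of all members. Rab15, known from recycling endosomes and enriched in neural tissue, was at 12.36 and 11.84 in tumors. Ganglia had 15.75, 14.75, 14.85, 14.54 and 15.15 on day 0, 15.72 and 15.91 on day 7 and 16.06 and 15.17 on day 14. Both tumors lay below every ganglion by more than the spread of any group. Rab15 was 7.51-fold lower in tumors than on day 0 (log2 difference -2.91, SE 0.33, limma adjusted p 2.52e-05) and stood at the 18.4th and 23.6th percentile on the set 1 arrays, below the day 0 range of 54.7 to 69.3. Rab3b, of the Rab3 group that docks secretory vesicles, was at 14.35 and 14.44 in tumors and 15.06, 16.59, 16.05, 16.25 and 16.04 on day 0. It was 3.03-fold lower (log2 difference -1.60, SE 0.31, limma adjusted p 0.00133), but on the set 1 arrays it stood at the 79.0th and 73.3rd percentile, above or within the day 0 range of 61.6 to 77.4.

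Rab4a and Rab4b, which return cargo from early endosomes to the surface, were both lower. Rab4a was at 15.52 and 15.26 in tumors and between 17.14 and 17.63 in day 0 ganglia (log2 difference -1.93, SE 0.18, limma adjusted p 5.25e-06), and it lay below the day 0 percentiles on the set 1 arrays too. Rab4b was at 13.05 and 13.46 in tumors and 15.54, 15.48, 14.51, 14.98 and 14.43 on day 0 (log2 difference -1.73, SE 0.31, limma adjusted p 0.000842). Its set 1 percentiles of 58.7 and 58.2 lay within the day 0 range of 53.1 to 67.0. Rab11a, a marker of the recycling endosome, was at 14.44 and 14.36 in tumors and 14.82, 14.86, 15.53, 15.75 and 15.51 on day 0, a difference of -0.90 (SE 0.26, limma adjusted p 0.0176) that rested on day 0 replicates 3 to 5. Against replicates 1 and 2 alone its difference was -0.44 and did not pass.

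Of the 7 Rab probes of the endoplasmic reticulum and Golgi 5 were lower against day 0: Rab6, which carries cargo back through the Golgi, at -1.35, Rab33b at -1.08, Rab2 at -0.73, and Rab1 and Rab33a at -0.70 each. Rab6 was at 19.04 and 19.10 in tumors against 20.16 to 20.73 on day 0 (SE 0.17, limma adjusted p 6.61e-05). Rab6ip2, which binds Rab6 and is also an ELKS scaffold of the presynaptic active zone, had probes that disagreed. Probe 320345 was at 15.45 and 15.43 in tumors and between 17.44 and 17.89 on day 0, 4.70-fold lower (log2 difference -2.23, SE 0.16, limma adjusted p 6.02e-07). Probe 650348 differed by -1.12 from day 0 (adjusted p 0.0981) and by 1.08 from day 14 (adjusted p 0.17), and neither difference passed.

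Early and late endosomal Rabs were divided. Rab5a, which drives fusion of early endosomes, was at 13.58 and 13.46 in tumors and between 12.99 and 15.09 on day 0, and the groups overlapped. Rab21, known for integrin traffic, was higher in tumors, at 15.63 and 15.51 against 14.22, 14.89, 14.55, 14.19 and 14.90 on day 0 (log2 difference 1.02, SE 0.24, limma adjusted p 0.00524). On the set 1 arrays, however, Rab21 stood at the 40.7th and 40.5th percentile, below its day 0 range of 49.8 to 59.4. Rab7, the main Rab of late endosomes, was lower against day 14 alone (-0.55, limma adjusted p 0.0421), and Rab7l1, of the lysosome and trans-Golgi, against day 7 (-1.46) and day 14 (-1.87). Rab32, which serves lysosome-related organelles, and Rab13, of epithelial junctions, passed against day 0 although groups overlapped: Rab32 was at 13.13 and 13.04 in tumors with day 0 replicate 1 at 13.07, and Rab13 at 11.93 and 11.71 with day 0 replicate 2 at 11.78.

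Rab12, a Rab of recycling endosomes and autophagy, was at 16.07 and 16.22 in tumors. Ganglia had 14.96, 15.00, 14.69, 14.78 and 14.94 on day 0, 14.92 and 14.72 on day 7 and 14.75 and 14.41 on day 14, all below both tumors. It was 2.41-fold higher than on day 0 (log2 difference 1.27, SE 0.19, limma adjusted p 0.000211). Its set 1 percentiles, 50.04 and 58.7, did not lie above the day 0 range of 56.5 to 60.7.

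**Figure D3:**
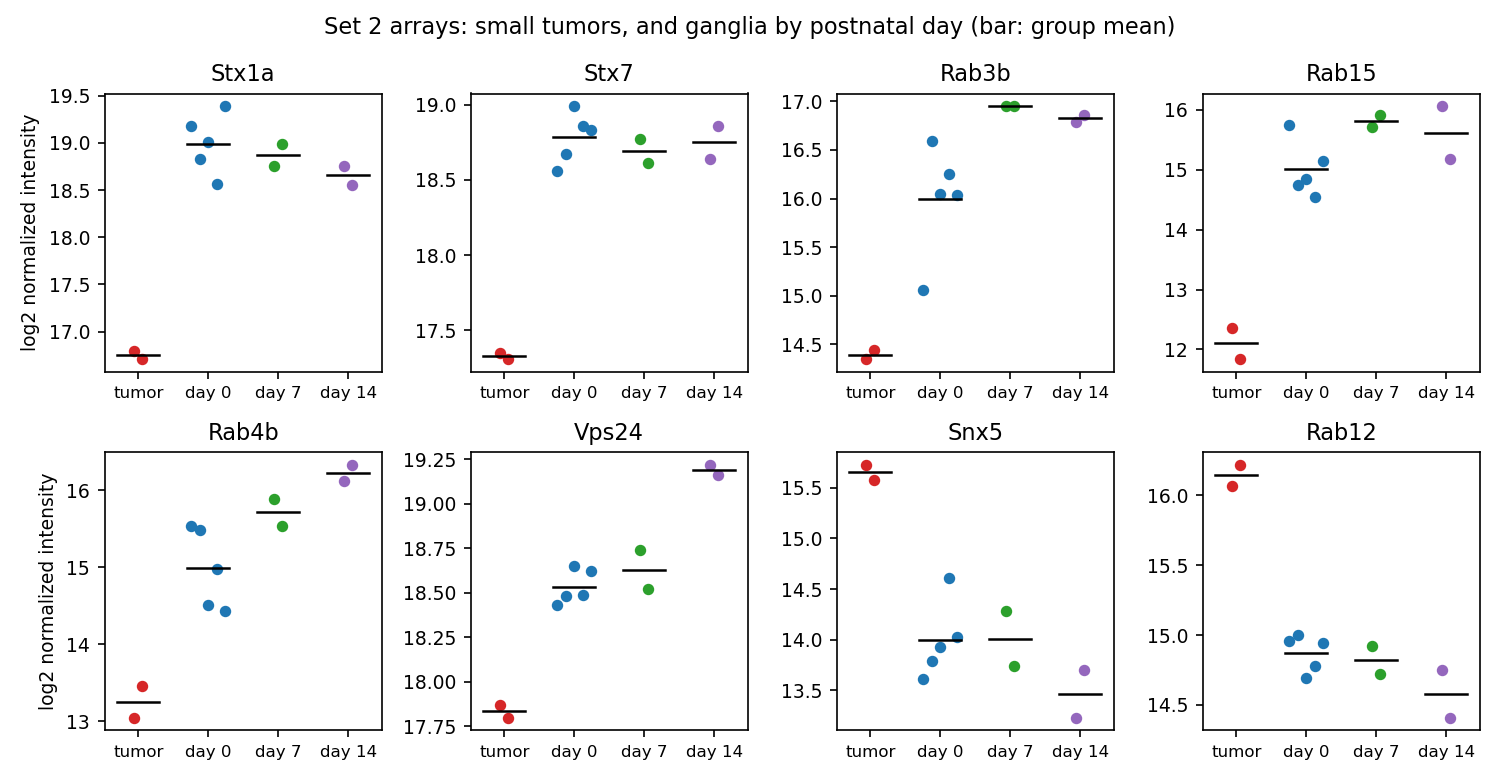
Each point is an array of set 2 and each bar a group mean, in log2 normalized intensity, for 8 members. In tumors Stx1a, Stx7, Rab3b, Rab15, Rab4b and Vps24 lie below all ganglia, and Snx5 and Rab12 lie above all of them.

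Of 18 sorting nexin probes 3 were higher (16.7%) and 4 lower (22.2%) against day 0, near the 18.4% and 18.9% of all probes. Snx5, a subunit of the complex that bends endosomal membrane into tubules for retrieval, was at 15.73 and 15.58 in tumors. Ganglia had 13.61, 13.79, 13.93, 14.61 and 14.03 on day 0, 14.28 and 13.74 on day 7 and 13.23 and 13.70 on day 14. Both tumors lay above every ganglion, 3.16-fold over day 0 (log2 difference 1.66, SE 0.29, limma adjusted p 0.00059). The set 1 arrays placed Snx5 higher still, at the 81.5th and 81.6th percentile against a day 0 range of 41.6 to 55.5.

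Snx4, which recycles the transferrin receptor, was at 14.61 and 15.44 in tumors and between 13.63 and 14.40 on day 0 (log2 difference 0.96, SE 0.28, limma adjusted p 0.0156). Snx1, the partner of Snx5 in retrieval, was at 19.20 and 18.97 in tumors and between 18.00 and 18.46 on day 0 (0.83, SE 0.18, limma adjusted p 0.00244), but day 14 ganglia, at 18.98 and 19.06, differed from tumors by 0.06 and did not pass. Snx15, an endosomal nexin known from trafficking of growth factor receptors, was lower at 14.44 and 14.62 in tumors against 16.07 to 16.40 on day 0 (-1.68, SE 0.20, limma adjusted p 3.3e-05). Snx11 and Snx16, both endosomal, were lower by fits of -1.07 and -1.08, and a probe of Snx6 by -0.47, while its other probe differed by 0.19 and did not pass.

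Of the retromer, Vps29 alone was lower among 3 subunits. Vps29 was at 17.75 and 17.88 in tumors and 18.75, 18.62, 19.16, 19.31 and 19.11 on day 0, with no overlap (log2 difference -1.17, SE 0.20, limma adjusted p 0.00054). Vps35 was at 19.25 and 19.05 in tumors and between 19.18 and 19.72 on day 0 (-0.27, SE 0.16, limma adjusted p 0.23), and Vps26 at 17.70 and 17.69 against 17.37 to 18.05 (-0.07, SE 0.21, limma adjusted p 0.83).

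In the ESCRT machinery, which sorts ubiquitinated cargo into multivesicular bodies, Vps28 of ESCRT-I and Vps24 of ESCRT-III were lower and the 3 probes of the Vps4 ATPases did not pass. Vps28 was at 16.67 and 16.87 in tumors and between 17.64 and 18.40 on day 0 (log2 difference -1.24, SE 0.19, limma adjusted p 0.000255). Vps24 was at 17.87 and 17.80 in tumors and between 18.43 and 18.65 on day 0 (-0.69, SE 0.13, limma adjusted p 0.00129). Vps4a was at 14.42 and 14.61 in tumors and spanned 14.16 to 16.07 on day 0, with overlap. Among the 3 HOPS tether subunits Vps41 was lower (-0.60, limma adjusted p 0.0439), with set 1 percentiles of 75.2 and 73.5 above its day 0 range of 51.2 to 58.8.

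Some of these calls depended on single arrays or on the scaling, and others did not. Rab15, Stx1a, Stx7, Rab3b, Rab4a, Rab4b, Rab6, Rab6ip2 probe 320345, Snx15, Vps28, Snx5 and Rab12 passed against day 0 in each of the 14 alternatives run, which left out 1 array at a time, part of the day 0 ganglia or a processing step. Without a tumor array the count of lower members against day 0 was 16 for either array, and without tumor replicate 1 that of higher members was 3. The shares of all probes called in those fits are not given here, so these counts cannot be read as particular to the members. Against day 7, centring the unnormalized table on array medians gave 3 higher and 7 lower members, compared with 5 and 21. The share of all probes called also fell, from 32.2% to 6.76%. That setting tested 33012 probes instead of 12688, so it changed more than the scaling.

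Within the ganglia, the question is how the members shift over the first 2 weeks of life. Between day 14 and day 0, 4 members were higher and 2 lower, 8% of members where 10.2% of all probes passed (5.56% higher and 4.63% lower; limma, Benjamini-Hochberg adjusted). Between day 7 and day 0 the adjusted count was 0 of 75 (13 at an unadjusted p under 0.05), with 1.99% of all probes passing (1.47% higher and 0.512% lower). Against day 0 replicates 3 to 5 alone, 5 members were higher and 16 lower on day 7, 28% of members where 24.8% of all probes passed. Between day 14 and day 7 it was also 0 (12 unadjusted), with 0.465% of all probes passing (0.197% higher and 0.268% lower). limma's F test over the 4 groups called 29 members, 38.7%, where 41.9% of all probes passed.

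Rab4b was at 16.12 and 16.33 on day 14 and at 15.54, 15.48, 14.51, 14.98 and 14.43 on day 0, without overlap (log2 difference 1.24, SE 0.31, limma adjusted p 0.0274). Its day 0 replicates 1 and 2 lay nearer to day 14 than the other day 0 ganglia did. Stx4a was at 14.49 and 14.66 on day 14 and between 13.05 and 14.03 on day 0 (1.12, SE 0.27, limma adjusted p 0.0244). For Stx4a too, day 0 replicates 1 and 2, at 14.03 and 13.62, lay nearer to day 14 than the other day 0 ganglia did. Snx1 was at 18.98 and 19.06 against 18.00 to 18.46 (0.77, SE 0.18, limma adjusted p 0.018), and Vps24 at 19.22 and 19.16 against 18.43 to 18.65 (0.66, SE 0.13, limma adjusted p 0.0102).

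Lower on day 14 were Rab33a, a Golgi Rab known in rat neurons for axon outgrowth, and the second Rab6ip2 probe. Rab33a was at 17.18 and 16.95 on day 14 and between 17.75 and 18.83 on day 0 (log2 difference -1.29, SE 0.24, limma adjusted p 0.00594). Rab6ip2 probe 650348 was at 10.54 and 9.91 against 11.17 to 13.20 (-2.20, SE 0.50, limma adjusted p 0.0168), while probe 320345 differed by -0.44 (adjusted p 0.102). Without day 14 replicate 1 or replicate 2 the higher members numbered 0, and without replicate 2 the lower ones did too. The shares of all probes called without those arrays are not given here, so this loss cannot be read as particular to the members. With the unnormalized table centred on array medians, 1 member was higher and 0 lower, where 0.927% of its 33012 probes passed. Against day 0 replicates 3 to 5 alone, 10 members were higher and 10 lower, 26.7% of members where 27.6% of all probes passed.

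Cell type markers also moved between day 14 and day 0. Of 12 sympathoadrenal markers 2 were higher and 4 lower, of 7 Schwann cell and glia markers 3 were higher, of 9 adipocyte markers 3 were higher, and of 9 fibroblast markers 2 were higher and 2 lower. Summed intensities, in units of 1e6, were 3.77 to 4.05 on day 14 against 1.67 to 3.17 on day 0 for Schwann cells and glia, and 0.902 to 1.35 against 0.323 to 0.751 for adipocytes, without overlap. Of neuron, muscle, macrophage, endothelial and adrenal cortex markers 0 passed (6, 3, 3, 0 and 0 at an unadjusted p under 0.05, limma). Their part in the members' differences was not tested.

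Rab4b, Stx4a and Vps24 were higher on day 14 than on day 0 and lower in tumors than on day 0. These comparisons share the day 0 ganglia. For Rab4b the group means were 13.26 in tumors, against 14.99 on day 0, 15.71 on day 7 and 16.22 on day 14.

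Set 1 asks whether the members shift as tumors grow. Few did. Medium against small tumors gave 0 calls among 75 members (12 at an unadjusted p under 0.05), where 0.961% of all probes passed (0.318% higher and 0.643% lower; limma, Benjamini-Hochberg adjusted). Large against small gave 1 higher member, Vps16, where 2.31% of all probes passed (0.949% higher and 1.36% lower). Very large against small gave 3 higher and 4 lower members, 9.33% of members and 4.69% of all probes (2.25% higher and 2.45% lower). The trend with log10 weight gave 4 higher and 5 lower, 12% of members and 5.59% of all probes (2.62% higher and 2.96% lower). The F test over the 4 size classes called Rab15 (adjusted p 0.0202) and Vps16 (adjusted p 0.0263), where 2.25% of all probes passed. The members' median log2 difference between very large and small tumors was -0.14, beside 0.03 over all probes. In set 1, here and below, all probes means the 32996 tested, a wider set than the 12688 from which the members were drawn. The set 1 shares among those 12688 were not computed, so a higher share of members is not set against like probes.

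Rab15 again had the lowest difference of all members. Its lowest, median and highest values were 10.93, 11.27 and 11.89 in small tumors, 9.40, 10.90 and 11.78 in medium ones, 8.76, 10.51 and 11.10 in large ones and 8.19, 9.26 and 10.34 in very large ones. Very large and small tumors did not overlap. Rab15 was 3.99-fold lower in very large than in small tumors (log2 difference -1.996, SE 0.40, limma adjusted p 0.00376), with a slope of -1.25 per 10-fold weight (SE 0.27, limma adjusted p 0.00546). It passed without any 1 array, and with muscle and adipocyte marker levels or life span in the model its difference kept its sign but did not pass.

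Snx10, a sorting nexin known from endosomal acidification and osteoclasts, ran from 14.63 to 15.95 in small tumors (median 15.55). Its medians in the larger classes were 14.78, 14.89 and 14.69, and very large tumors lay between 14.37 and 14.97, overlapping the small ones. Its difference in very large tumors was -0.79 (SE 0.20, limma adjusted p 0.019). Rab11a (-0.60, SE 0.17, limma adjusted p 0.0379) and Rab5c, an early endosomal Rab (-0.37, SE 0.10, limma adjusted p 0.0225), were lower with overlapping groups. The slope also passed for Snx3, which retrieves the Wnt carrier Wntless with retromer, at -0.29 (SE 0.08), and for Vps29 at -0.21 (SE 0.07, limma adjusted p 0.04998).

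Vps16, a core subunit of the HOPS and CORVET tethers, ran from 15.73 to 16.10 in small tumors (median 15.91), 16.01 to 16.28 in medium ones (16.15), 16.12 to 16.70 in large ones (16.34) and 16.11 to 16.67 in very large ones (16.27). All large and very large tumors lay above all small ones. The difference was 0.48 in large tumors (SE 0.11, limma adjusted p 0.0128) and 0.43 in very large ones (SE 0.11, limma adjusted p 0.0166). Vps16 did not pass against any ganglion age in set 2, where it was at 16.75 and 16.74 in tumors and between 16.19 and 16.78 on day 0.

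Rab24, a Rab linked to autophagy, had small tumors at 15.33 to 15.87 and very large ones at 15.81 to 16.31, with overlap (log2 difference 0.42, SE 0.11, limma adjusted p 0.0284). Vamp4, the SNARE of the trans-Golgi, was higher by its probe 930302, at 14.99 to 15.32 in very large tumors against 14.59 to 14.86 in small ones, without overlap (0.40, SE 0.10, limma adjusted p 0.0152). Its other probe, 825178, overlapped between those classes, at 13.54 to 14.13 against 13.48 to 13.87, and did not pass. Snx5 had a positive slope of 0.31 per 10-fold weight (SE 0.09, limma adjusted p 0.0319). These rises were small. With arrays centred on their medians, 0 members were higher and 6 lower in very large tumors, and 0 and 6 in the trend. Over all 32996 probes that setting called 223 higher and 913 lower in very large tumors, compared with 742 and 807. In the trend it called 244 and 1073, compared with 866 and 977. Higher calls thus fell over all probes too.

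**Figure D4:**
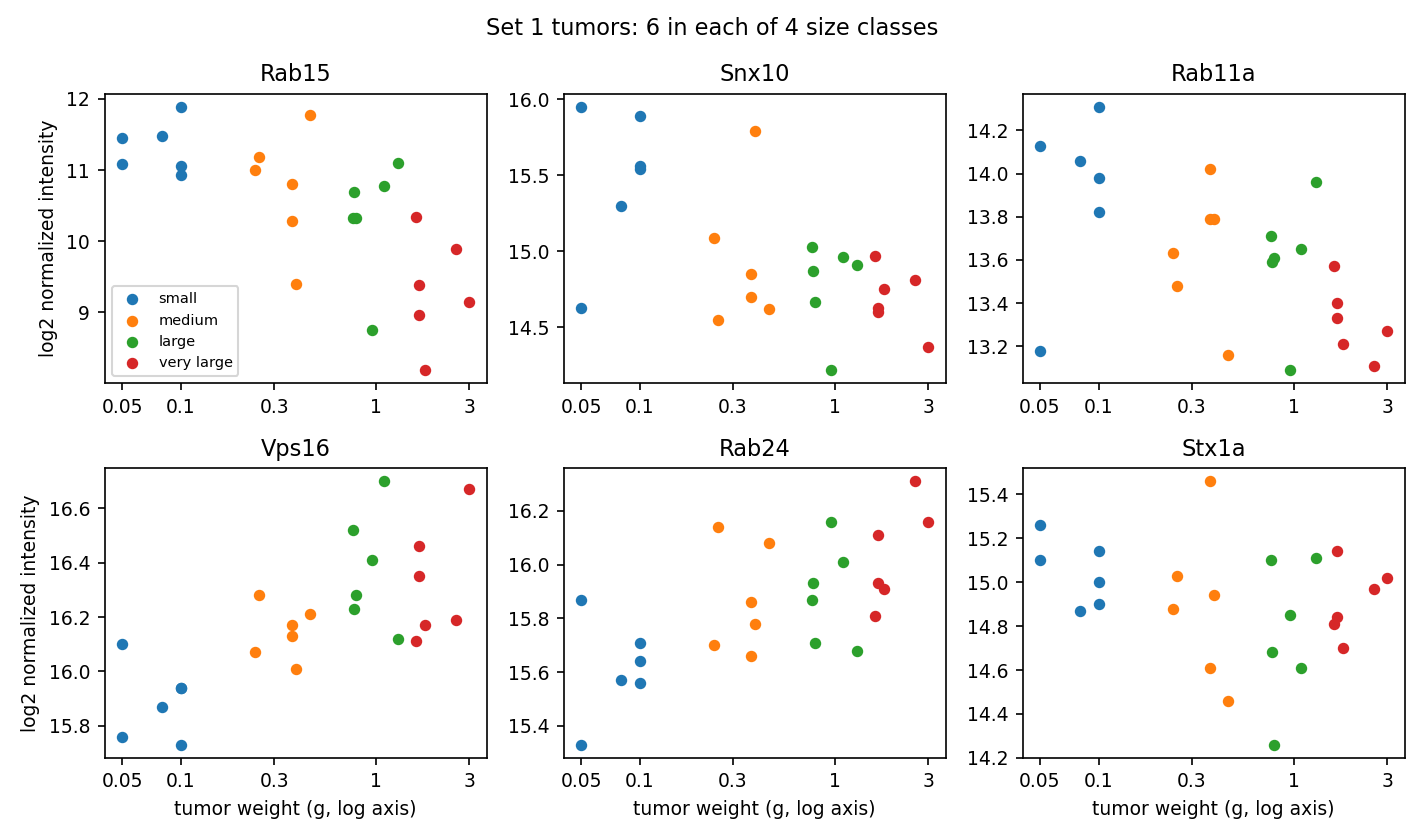
Log2 normalized intensity of 6 members in the 24 tumors of set 1 against tumor weight on a log axis, coloured by size class. Rab15 spans 11.89 down to 8.19, Snx10 and Rab11a are lower and Vps16 and Rab24 higher in very large than in small tumors, and Stx1a overlaps in all classes.

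Of the 38 members called between tumors and ganglia at any age and the 10 called between tumor sizes or in the weight trend, 5 were in both (13.2% and 50%). These were Rab11a, Rab15 and Vps29, lower in both, and Snx5 and Vamp4 probe 930302, higher in both. Rab15, Vps29 and Snx5 passed against all 3 ganglion ages, Rab11a against day 0 alone. Vamp4 probe 930302 passed against day 7 alone (log2 difference 1.68, SE 0.53, limma adjusted p 0.0275). It was at 16.33 and 15.99 in tumors and overlapped day 0 ganglia, at 14.27 to 16.33. An overlap of 5 among 10 is near the share that the 38 make up of all 75 members. The overlap over all probes was not computed. Of the 19 lower in all 3 ganglion comparisons, Rab15 was called in very large against small tumors and Rab15 and Vps29 in the trend, and the median difference of the 19 in very large tumors was -0.22. Stx1a was at 14.70 to 15.14 in very large tumors and 14.87 to 15.26 in small ones (log2 difference -0.13, SE 0.15, limma adjusted p 0.707). Rab12 differed by -0.09 (limma adjusted p 0.867). Set 1 includes both tumors of set 2, as other arrays.

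Cell type markers moved with size too. Between very large and small tumors 5 of 8 skeletal muscle markers and 6 of 9 adipocyte markers were lower, with 0 higher. The summed muscle intensity, again in units of 1e6, ran from 0.0133 to 1.10 in very large tumors against 0.0281 to 4.06 in small ones, and that of adipocytes from 0.167 to 0.437 against 0.247 to 3.13. Lower too were 4 of 7 Schwann cell and glia markers, 5 of 9 fibroblast markers (1 higher), 3 of 9 neuron markers (1 higher) and 4 of 12 sympathoadrenal markers (1 higher). Of macrophage, endothelial and adrenal cortex markers 0 passed (0, 0 and 1 at an unadjusted p under 0.05, limma). When the levels of muscle and fat markers entered the model, 0 members were higher and 1 lower in very large tumors (1.33% of members, 0.50% of all probes), and 0 were called in the trend (0.0515% of all probes).

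Other genes of the same routes were read from lists of genes with other names. Of 45 measured genes of coats, adaptors and Arf GTPases, which shape and load vesicles, 1 was higher and 12 lower in set 2 tumors than in day 0 ganglia, among them Arfgap3 (-1.20), Ap1m1 (-0.75) and Sec24d (-1.74). Of 19 further SNAREs and SNARE recycling factors 2 were higher and 6 lower: Snap47 fell by 1.40 and Napb, the neuronal SNAP that recycles SNARE complexes, by 1.12 on the log2 scale, while Sec22b of the endoplasmic reticulum was higher at 1.68. Of 21 exocyst, COG and TRAPP tether subunits 1 was higher (Cog8, 0.80) and 6 lower, among them Trappc2l (-0.96) and Exoc3 (-0.81).

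Of 21 genes that prenylate, deliver or switch Rabs or bind them as effectors, 2 were higher and 4 lower. Rabac1, a receptor for prenylated Rabs, was lower at -2.17 (SE 0.23, limma adjusted p 1.17e-05) and Sytl4, a Rab27 effector on secretory granules, higher at 2.75 (SE 0.31, limma adjusted p 2.55e-05). Of 17 other ESCRT and endosome sorting genes 2 were higher (Chmp5 at 0.79 and Tsg101, the partner of Vps28 in ESCRT-I, at 0.94) and 2 lower, among them Ehd3 (-1.81). In very large against small tumors these lists gave 0 higher and 7 lower for coats and adaptors, 1 higher (Sec22b, 0.35) for SNAREs, 0 of 21 for tethers (2 at an unadjusted p under 0.05), 0 higher and 2 lower for the Rab cycle and 0 higher and 1 lower for ESCRT. Each test ran over all probes of its set (37.3% and 4.69% called).

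Finally, 31 of the 75 probes passed in none of the 12 tests, among them Rab8a, Rab10, Rab14, Rab5a, Snx2, Vamp2, Vps26, Vps35, Vps4a and both probes of Vps4b. Their log2 differences between tumors and day 0 ganglia ran from -0.77 to 0.72, with a median of -0.10. A missed threshold with 2 tumors does not show that these genes were equal: for Rab5a the standard error alone was 0.43. The share of all probes that passed in none of the 12 tests was not computed.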

How the data were processed

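Each array read labelled cDNA from frozen tissue sections (single colour, per the labels' protocols). The deposited series table holds intensity values that the authors did not normalize between arrays: its array medians spanned 557.79 to 1292.16 (set 1) and 655.665 to 1513.66 (set 2). The separate set 2 table of 12688 probes holds intensities that the authors quantile normalized, per a deposited note. Sorted, its 11 columns were identical and each rank carried the highest array's value (relative tolerance 1e-06), so levels lie above the scanner's. The sources used here do not state how images were read or probes chosen. All columns could be mapped to samples (0 not mapped).

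Set 1 was quantile normalized here, and 16 probes with missing values were left out (32996 tested). Values under the 1st percentile of a set (168.105 and 878.91) were raised to it, and log2 taken. limma 3.58.1 in R 4.3.3 was fitted per set with all groups and an intensity trend, p values were adjusted over all probes (Benjamini-Hochberg) and an adjusted p under 0.05 passed. Tests were two-sided. Within a set, arrays are separate specimens per the labels, and their number limits the precision. Symbols were updated through RefSeq (GRCm38.p6). The code was tested on simulated data.

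Members and lists (5 pathway lists, 9 marker lists) were chosen with earlier results of these data known. Named genes were the up to 10 highest and 10 lowest called members per main comparison (5 and 5 in the others) and a few core members. Roles came from textbook knowledge. Some genes enter the counts but are not reported by name here. Alternatives covered scaling, floor, dim probes, the variance trend, day 0 specimen series, life span, muscle and adipocyte levels, and each array left out.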

Additional observations from a re-analysis of the deposited data

Results flagged for a closer look

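In 12 of 180 groups of 5 or 6 arrays (6.67%) the highest or lowest array of a member lay far from the others. Chance flags about 1 in 20 such groups. In large tumors, Rab15 was lowest in replicate 4 at 8.76, with the next tumor at 10.33. Vamp4 probe 825178 was lowest in the same tumor at 13.07 (next 13.62), and so was Vps4a at 14.28 (next 14.64). Snx5 was highest in large replicate 6 at 16.96 (next 16.08).

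In medium tumors, Rab12 was lowest in replicate 1 at 12.92 (next 13.85) and Vps35 highest in the same tumor at 16.92 (next 16.78). Rab5a was highest in medium replicate 5 at 14.30 (next 13.64), and Vps4a in medium replicate 4 at 15.09 (next 14.56). In small tumors, Vps4a was highest in replicate 5 at 14.81 (next 14.55) and Rab7l1 in replicate 2 at 11.51 (next 11.01). Rab3b was highest in very large replicate 6 at 15.31 (next 15.13). Rab24 was lowest in day 0 ganglion replicate 4 at 12.37 (next 13.25).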

How the results depend on the processing

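Of 83 calls of named members, 34 passed under every alternative run, and of 1152 alternative values 902 kept direction and call, 245 kept the direction alone and 5 reversed. The 5 came from set 1 without normalization: in very large tumors Vamp4 probe 930302 at -0.061, Vps16 at -0.0097 and Rab24 at -0.0232, and in the weight trend Vamp4 at -0.059 and Rab24 at -0.0237. That setting moved the median of all probes by -0.26 (very large) and -0.17 (trend), and centring the unnormalized set 2 table moved it by -0.16, -0.12 and -0.21 for tumors against day 0, 7 and 14, and by 0.12 for day 14 against day 7.

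Centring set 2 gave 3 higher and 11 lower members for tumors against day 0, 3 and 7 against day 7, 2 and 13 against day 14, 1 and 0 for day 14 against day 0, and 11 in the F test. It tested 33012 probes, of which 10.2%, 6.76%, 10.1%, 0.927% and 9.26% passed, in that order. Quantile normalizing the series table gave 18 lower members against day 0, 3 higher against day 7, and 2 higher and 1 lower for day 14 against day 0. Of the same 33012 probes, 14.3%, 11.8% and 2.44% passed there in either direction. Leaving out dim probes gave 1 lower for day 14 against day 0, 1 lower in large tumors and 9 lower in the trend. Of all probes then tested, 587 of 9516, 495 of 24747 and 1062 of 24747 were lower, in that order. With day 0 replicates 1 and 2 only, 8 members were higher in tumors and 2 higher on day 14. Over all 12688 probes 2712 and 738 were. With replicates 3 to 5 only, 10 were higher and 10 lower on day 14, 5 higher and 16 lower on day 7, and 46 passed the F test (26.7%, 28% and 61.3% of members, beside 27.6%, 24.8% and 60.4% of all probes).

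In set 1, higher calls were 0 in large and very large tumors under median centring, no normalization, no intensity trend, life span as a covariate, and muscle and adipocyte levels as covariates. The lower calls in very large tumors were 1, 1, 0 and 1 under the last 4 of these (centring gave 6). The F test counts were 1, 1, 1, 0 and 0 under all 5. The trend's higher counts were 0, 0, 2, 0 and 0, and its lower counts 2, 2, 0 and 0 under the last 4. Over all 32996 probes higher calls fell too, to 110, 4, 128, 40 and 12 in large tumors (main fit 313). In very large tumors they were 223, 25, 437, 52 and 76 (main fit 742). Lower calls there were 527, 527, 220 and 89 under the last 4 (main fit 807). Of all probes, 1.66%, 0.821%, 1.22%, 0.461% and 0.0182% passed the F test (main fit 2.25%). In the trend 3.99%, 2.51%, 3.76%, 0.749% and 0.0515% passed (main fit 5.59%).

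Leaving out each array in turn gave the ranges of member counts below. The shares of all probes called in those fits are not given here, so the ranges cannot be read as particular to the members. Tumors against day 0 had 3 to 6 higher and 16 to 26 lower, against day 7 had 3 to 4 and 11 to 17, and against day 14 had 4 to 5 and 16 to 19. Day 14 against day 0 had 0 to 6 and 0 to 3, day 7 against day 0 had 0 to 2 each way, and the stage F test had 21 to 34. Medium tumors had 0 higher and 0 to 1 lower, large 1 to 2 and 0 to 1, very large 1 to 4 and 1 to 9, the size F test 0 to 4, and the trend 2 to 5 and 1 to 9. The arrays that moved a size count over 1.5 times were mostly small tumors: without small replicate 1 there were 9 lower members in very large tumors, and without small replicate 4 there was 1. Where 1 array of a group remained, it was assumed to vary like the other groups. The causes were not tested.

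No paired analysis was possible because the labels give no replicate numbers shared between groups. Signal over background could not be judged beyond the floor: 2 member values, both of Vps45 in set 2 tumors, lay at it.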
